A study of Mus musculus with 8 samples.

Results

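The genes described here are 10 markers of cancer-associated fibroblasts, the connective-tissue cells that lie between the cancer cells of a tumor. They were Pdgfra, Pdgfrb, Fap, Acta2, Thy1, Dcn, Lum, Postn, Pdpn and S100a4. The genes were chosen by name, as fibroblast and myofibroblast markers other than collagens, and each was found once among the 54532 genes of the count table. All 10 passed the filter on low counts, which kept 18511 genes for testing.

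The study compared tumors of mice given saline with tumors of mice given mAb-DXd/IMQ. This antibody to CD276 carries DXd, a topoisomerase I inhibitor, and IMQ, a Toll-like receptor agonist, and the labels spell it HumCD276-Dxd/IMQ. The tumors grew from 4T1-FLuc cells, a mouse triple-negative mammary carcinoma line that carries firefly luciferase, placed under the skin of female BALB/cJ mice at 6 weeks of age. Treated mice received 16 mg/kg into a tail vein every 4 days for 5 courses. The study reports far smaller tumors at its endpoint after mAb-DXd/IMQ than after saline, and extensive tumor cell death on histology. Tumor size thus differed along with treatment, and its part in the levels below was not tested. The control group is named saline in the sample titles and PBS control in the treatment label, and is called saline here. The labels call the tumors xenografted, although the cells and the hosts are both mouse. Each group held 4 whole tumors, numbered 1 to 4 in the labels, and poly-A RNA of each was sequenced. No label names the mouse behind a tumor, so p-values measure the spread between these 8 samples.

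The total count was 49398150, 45019927, 56388627 and 69582375 in saline tumors 1 to 4 and 51625237, 46196237, 42965317 and 34591912 in mAb-DXd/IMQ tumors 1 to 4. An exact two-sided permutation test on the totals gave p = 0.171, where the smallest p that 4 against 4 allows is 0.0286. Levels are given as CPM (counts-per-million after TMM scaling). A floor of 3 counts corresponded to 0.0439 to 0.0843 CPM, for counting error only, and the lowest count of any of the 10 genes in any tumor was 188.

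Fibroblasts of a tumor lay down collagen and other matrix, and they occur in several states, among them contractile myofibroblasts, inflammatory fibroblasts that secrete cytokines, and fibroblasts with antigen-presenting genes. Their markers are shared with other cells: Pdgfrb and Acta2 with pericytes and smooth muscle, Thy1 with mouse T cells, Pdpn with lymphatic endothelium, and S100a4 with macrophages and some carcinoma cells. Fewer cells of a type and less RNA per cell cannot be told apart in RNA of whole tumors.

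Compared per length, as CPM per kb by the gene lengths of the count table, in the 4 saline tumors Postn was at 44.3 ± 15.7, Acta2 at 39.7 ± 9.55 and Thy1 at 34.5 ± 5.11 (SD, n = 4). These 3 overlapped in their ranges and were not put in order, since with the longer exon length of Acta2 in GENCODE M21 (2196 in place of 1781 bases) Acta2 was at 32.2 ± 7.75 CPM per kb, below Thy1. Thy1 was above the next gene in all 4 tumors. A middle group of 6 genes followed, with Lum at 11.4 ± 5.35, Pdpn at 11.01 ± 2.04, S100a4 at 11.01 ± 2.81, Pdgfrb at 10.2 ± 1.83, Pdgfra at 9.56 ± 1.01 and Dcn at 8.22 ± 3.58 CPM per kb. Each neighbour in that group overlapped the next, and the place of S100a4 is open, since on the 282 exon bases it shares with no other gene on its strand its counts would come to 22.8 ± 5.82 CPM per kb. Fap was the lowest at 1.08 ± 0.205 CPM per kb, below Dcn in all 4 saline tumors. Over all 8 tumors, the mean level per kb stood at the 94.3th percentile of the tested genes for Acta2 (92.6th with the longer exon length), the 94.0th for Postn, the 92.5th for Thy1 and the 34.4th for Fap.

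Promoter sequences were at hand for 5 of the 10 genes (RefSeq, GRCm38.p6). Those of Postn, S100a4 and Pdgfra are shown, because Postn rose and fell across the tumors with most of the markers, S100a4 ran against them, and Pdgfra was the marker with lower values in every treated tumor. Each is the 250 bases before the start site, 5′ to 3′ on the gene's strand, with the letters TATAAA in capitals where present on either strand.
Postn, chr3:54360857-54361106, plus strand: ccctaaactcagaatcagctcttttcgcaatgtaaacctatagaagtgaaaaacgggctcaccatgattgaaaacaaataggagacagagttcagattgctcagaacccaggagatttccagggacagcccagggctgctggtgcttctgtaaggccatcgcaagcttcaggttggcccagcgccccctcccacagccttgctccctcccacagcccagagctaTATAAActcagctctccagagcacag
S100a4, chr3:90603520-90603769, plus strand: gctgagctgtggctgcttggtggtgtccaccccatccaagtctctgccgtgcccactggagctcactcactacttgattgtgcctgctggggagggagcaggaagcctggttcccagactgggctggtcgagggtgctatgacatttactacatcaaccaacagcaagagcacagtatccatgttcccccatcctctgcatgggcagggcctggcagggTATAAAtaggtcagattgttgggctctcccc
Pdgfra, chr5:75152001-75152250, plus strand: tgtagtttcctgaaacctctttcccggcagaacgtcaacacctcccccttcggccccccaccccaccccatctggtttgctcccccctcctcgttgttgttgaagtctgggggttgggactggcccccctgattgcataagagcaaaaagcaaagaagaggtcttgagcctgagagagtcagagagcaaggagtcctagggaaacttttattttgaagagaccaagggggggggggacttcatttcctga
TATAAA began 26 bases before the Postn start shown and 31 bases before that of S100a4, and 12.4% of all 32851 promoters of this length held it. The Pdgfra window held none of the 5 motifs searched on both strands. Beside TATAAA these were the GC box GGGCGG, in 32.7% of promoters, the AP-1 letters TGACTCA, in 4.46%, the TEAD letters CATTCC, in 12.6%, and the CArG box, in 1.47%. The share of G and C was 52.0% in the Postn window, 57.2% in that of S100a4 and 54.4% in that of Pdgfra, against a median of 52.4% over all promoters. Another Postn start and the start of Acta2 and Pdpn were searched and are not shown. That other Postn window (40.4% G and C) and the Pdpn window held none of the 5 motifs. The Acta2 window held CATTCC, which began 146 bases before the start. Fap, Thy1, Dcn, Lum and Pdgfrb had no entry.

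The comparison of the groups asks which genes differ in tumors after mAb-DXd/IMQ. A gene was called where edgeR's quasi-likelihood test gave an adjusted p below 0.05 (Benjamini-Hochberg over all tested genes) and the log2 fold change was beyond 0.58 in either direction. None of the 10 fibroblast markers was called by edgeR, where 1.06% of all tested genes were, 197 of 18511, with 101 higher and 96 lower in treated tumors. With upper quartile scaling the calls were 145 higher and 73 lower. At an unadjusted p under 0.05, 2 of the 10 markers passed, Pdgfra and Fap, beside 18.9% of all tested genes. DESeq2 called 1 marker, Fap, beside 787 of all tested genes (4.25%), and limma-voom called 0, beside 174 (0.940%). The log2 fold change was above 0 for 8 markers and below 0 for 2, where 52.6% of all tested genes were above 0. Without its sign, it had a median of 0.28 over the markers and 0.24 over all tested genes. With its sign, the median was 0.20 beside 0.02 over all tested genes. This signed median of the markers was between 0.18 and 0.24 under every other scaling, filter and test tried. It fell to 0.09 without mAb-DXd/IMQ tumor 1 and reached 0.33 without saline tumor 4 or mAb-DXd/IMQ tumor 4. The count of 197 genes dropped to 10 without saline tumor 3, 11 without saline tumor 4, 12 without mAb-DXd/IMQ tumor 4, 76 without mAb-DXd/IMQ tumor 2, 88 without mAb-DXd/IMQ tumor 3 and 111 without saline tumor 2, while the count of markers was 0 each time.

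**Figure D1:**
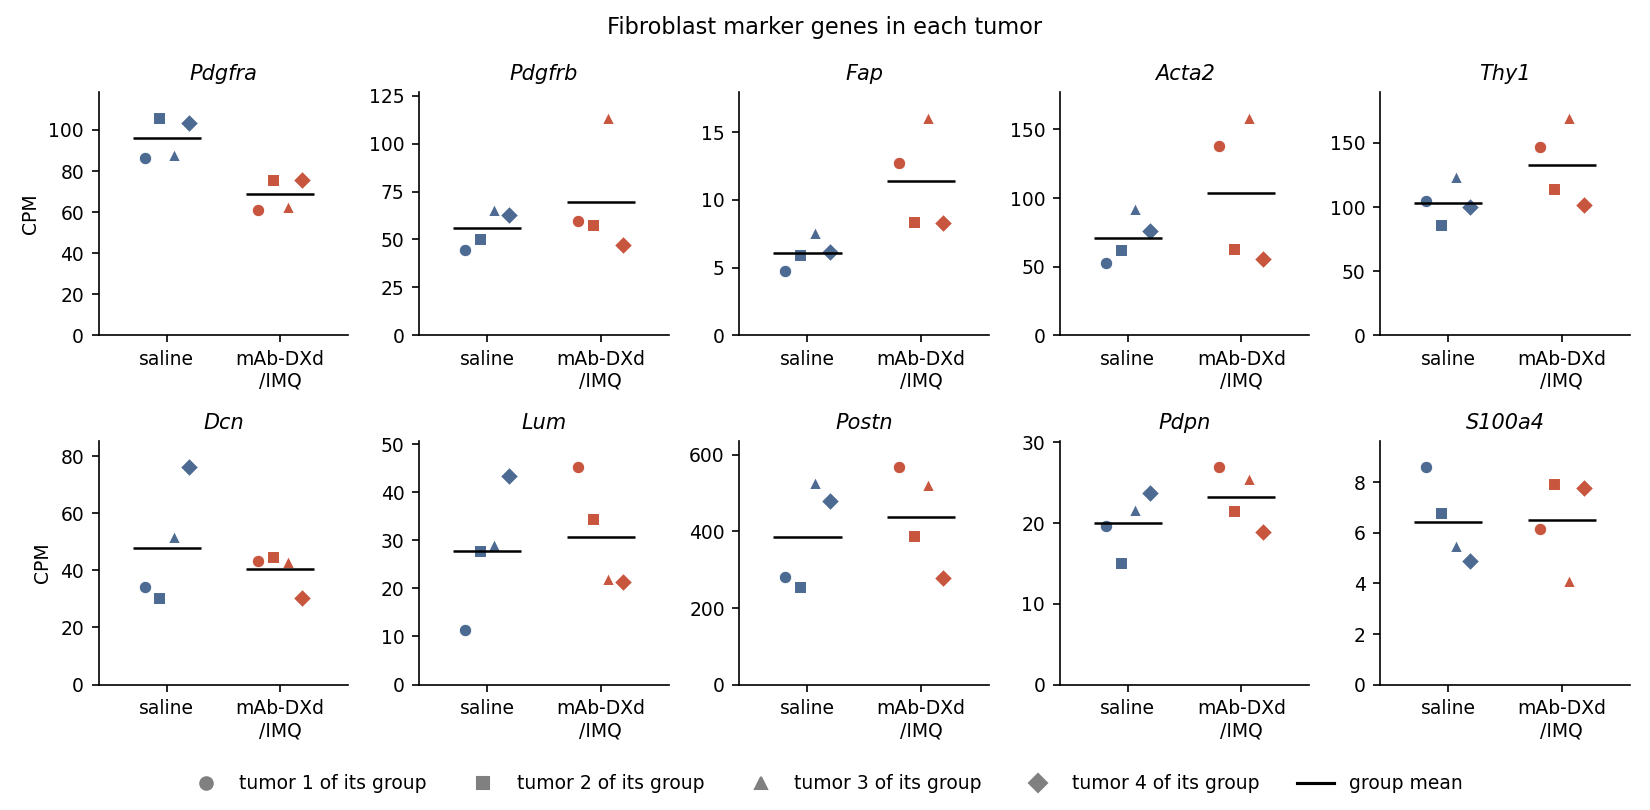
Level of each of the 10 marker genes in CPM (vertical axis, from 0) in every tumor of the saline and mAb-DXd/IMQ groups; symbols number the tumors within their group and lines are group means (n = 4). Pdgfra lies lower and Fap higher in all 4 treated tumors, and the other 8 genes overlap between groups.

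Receptors for platelet-derived growth factor come first. Pdgfra (ENSMUSG00000029231, chromosome 5, 75152292 to 75198215, plus strand) encodes the alpha receptor, found on most fibroblasts. Its level was 86.4, 106, 87.9 and 103 CPM in saline tumors 1 to 4 and 61.2, 75.7, 62.7 and 75.6 CPM in mAb-DXd/IMQ tumors 1 to 4. All 4 treated tumors were below all 4 saline tumors, with a narrow spread in both groups. Values that did not overlap and were lower after treatment occurred in 7.10% of all tested genes. Pdgfra had a log2 fold change of -0.48 (SE 0.12), and its adjusted p of 0.0679 in edgeR missed the threshold. DESeq2 gave an adjusted p of 0.0119 with a log2 fold change that also stayed within the limit of 0.58, and over all settings the adjusted p ran from 0.0119 to 0.216. Annotated genes on the opposite strand share 6.21% of the exon bases of Pdgfra, and the 3 genes that overlap it held 12 counts in all 8 tumors together.

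Pdgfrb (ENSMUSG00000024620, chromosome 18, 61045150 to 61085061, plus strand) encodes the beta receptor, which pericytes carry as well. It measured 44.5, 50.3, 65.6 and 62.6 CPM in saline tumors and 59.7, 57.7, 113 and 47.0 CPM in treated tumors. The groups overlapped, and only mAb-DXd/IMQ tumor 3 was above every saline tumor. The log2 fold change of 0.32 (SE 0.25, edgeR adjusted p = 0.528) became -0.03 when that tumor was left out. In contrast to Pdgfra, the spread of Pdgfrb was wider after treatment, with a ratio of highest to lowest of 2.41 against 1.47 in saline tumors, and the difference in spread was not tested.

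Of the PDGF ligands, 0 of 4 were called, 3 had estimates above 0 and 1 below, and the median log2 fold change was 0.29. Pdgfc, the most abundant per length at 40.0 CPM per kb, had the lowest estimate of -0.30 (-0.18 without saline tumor 2). Pdgfb, the ligand made by endothelium that recruits pericytes, had the highest at 0.87 (SE 0.27, edgeR adjusted p = 0.117), which was 0.55 without mAb-DXd/IMQ tumor 3, and was past both thresholds with DESeq2 (adjusted p = 0.0238). Pdgfb read 69.7, 58.5, 84.5 and 50.3 CPM in saline tumors and 121, 73.1, 191 and 94.9 CPM in treated tumors. Treated tumors 1, 3 and 4 were above every saline tumor and treated tumor 2 was below the highest of them.

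Fap, Thy1 and Pdpn are proteins of the cell surface. Fap (ENSMUSG00000000392, chromosome 2, 62500943 to 62574075, minus strand) encodes fibroblast activation protein, a serine protease of activated fibroblasts. Its level was 4.74, 5.94, 7.58 and 6.14 CPM in saline tumors 1 to 4 and 12.8, 8.39, 16.03 and 8.29 CPM in mAb-DXd/IMQ tumors 1 to 4. The groups did not overlap, and treated tumors 1 and 3 were higher than treated tumors 2 and 4. Values that did not overlap and were higher after treatment occurred in 5.97% of all tested genes. Its log2 fold change was 0.90 (SE 0.25), a 1.86-fold difference, with an adjusted p of 0.0903 in edgeR. Over all settings the adjusted p of Fap ran from 0.0107 to 0.222, and the lowest came from DESeq2, which called the gene at a log2 fold change of 0.89. Its log2 fold change was 0.69 without mAb-DXd/IMQ tumor 3, the lowest over the left-out tumors, and 1.03 at the highest.

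Thy1 (ENSMUSG00000032011, chromosome 9, 44043384 to 44048579, plus strand) encodes a small anchored glycoprotein, also known as CD90. It measured 105, 86.1, 123 and 100 CPM in saline tumors and 147, 114, 169 and 102 CPM in treated tumors. Treated tumors 1 and 3 were above every saline tumor, and treated tumors 2 and 4 lay within the saline range. Thy1 had a log2 fold change of 0.36 (SE 0.17, edgeR adjusted p = 0.279), and 0.22 without mAb-DXd/IMQ tumor 3. Mouse T cells also carry Thy1, and the summed level of a T cell list is given further on.

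Pdpn (ENSMUSG00000028583, chromosome 4, 143267431 to 143299564, minus strand) encodes podoplanin, a mucin-like surface protein. Its values were 19.7, 15.03, 21.6 and 23.7 CPM in saline tumors and 26.9, 21.5, 25.5 and 18.9 CPM in treated tumors. Treated tumors 1 and 3 were again above every saline tumor, and the groups overlapped (log2 fold change 0.21, SE 0.17, edgeR adjusted p = 0.528). The estimate was 0.10 without saline tumor 2 and 0.31 without saline tumor 4.

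Acta2 and S100a4 encode proteins of the cytoskeleton and of calcium binding. Acta2 (ENSMUSG00000035783, chromosome 19, 34241090 to 34255336, minus strand) encodes smooth muscle actin, the defining protein of myofibroblasts. It measured 52.7, 62.4, 91.9 and 75.7 CPM in saline tumors and 138, 62.7, 158 and 55.9 CPM in mAb-DXd/IMQ tumors 1 to 4. The treated group was split, with tumors 1 and 3 above every saline tumor and tumors 2 and 4 within the saline range. Its ratio of highest to lowest was 2.83 in treated tumors and 1.74 in saline tumors. For Acta2 the log2 fold change was 0.56 (SE 0.32, edgeR adjusted p = 0.378), and leaving out each tumor in turn moved it between 0.28 and 0.77. Actins share long stretches of coding sequence, so the counts of Acta2, Actg2 and Acta1 may have taken reads from each other.

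S100a4 (ENSMUSG00000001020, chromosome 3, 90603771 to 90606045, plus strand) encodes a small calcium-binding protein, also called fibroblast-specific protein. Its level was 8.60, 6.77, 5.46 and 4.90 CPM in saline tumors and 6.17, 7.94, 4.11 and 7.79 CPM in treated tumors. The lowest value was in mAb-DXd/IMQ tumor 3, where Pdgfrb, Fap, Acta2 and Thy1 were at their highest. The log2 fold change of 0.02 (SE 0.26, edgeR adjusted p = 0.984) had no stable sign, and was -0.13 with a correction for gene length. An annotated gene on the same strand, Gm42674, covers 51.7% of the exon bases of S100a4 and held 0 counts in all tumors, so reads in the shared bases may not have been counted and the level of S100a4 is uncertain.

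Dcn, Lum and Postn encode proteins of the matrix. Dcn (ENSMUSG00000019929, chromosome 10, 97479609 to 97518143, plus strand) encodes decorin, a small proteoglycan that binds collagen fibrils and TGF-beta. It measured 34.0, 30.2, 51.5 and 76.1 CPM in saline tumors and 43.2, 44.8, 43.0 and 30.3 CPM in treated tumors. Every treated value lay within the saline range, which was wide. The log2 fold change of -0.25 (SE 0.26, edgeR adjusted p = 0.646) turned to 0.07 without saline tumor 4.

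Lum (ENSMUSG00000036446, chromosome 10, 97565128 to 97572703, plus strand) encodes lumican, which regulates the width of collagen fibrils. It read 11.3, 27.8, 28.9 and 43.4 CPM in saline tumors and 45.2, 34.4, 21.97 and 21.3 CPM in treated tumors. The saline tumors spanned a ratio of 3.83, the widest of the 10 genes in that group, and the groups overlapped. The log2 fold change of 0.14 (SE 0.35, edgeR adjusted p = 0.873) was -0.12 without saline tumor 1 and -0.11 without mAb-DXd/IMQ tumor 1.

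Postn (ENSMUSG00000027750, chromosome 3, 54361109 to 54391037, plus strand) encodes periostin, a matrix protein of activated fibroblasts. Its level was 282, 256, 527 and 479 CPM in saline tumors and 568, 388, 521 and 280 CPM in treated tumors. High and low tumors occurred in both groups, with saline tumors 3 and 4 and treated tumors 1 and 3 above the other 4 tumors. Postn had a log2 fold change of 0.19 (SE 0.27, edgeR adjusted p = 0.762), which ran from 0.03 without saline tumor 2 to 0.37 without saline tumor 3.

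**Figure D2:**
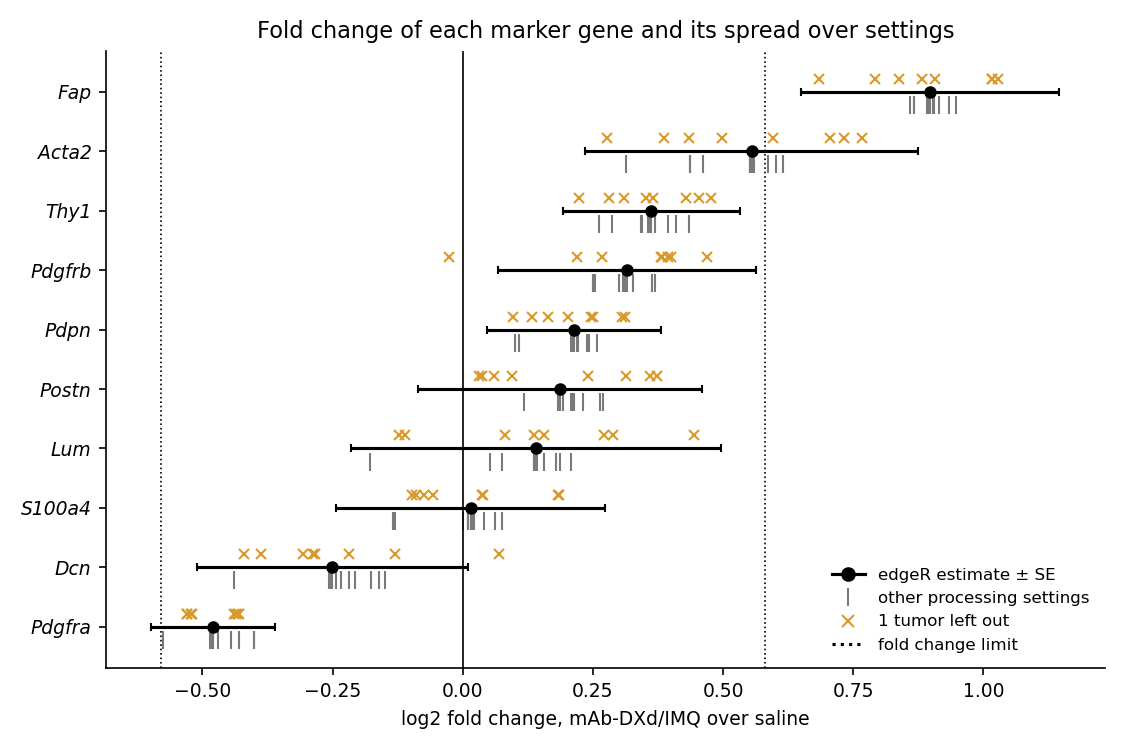
Log2 fold change of each marker gene, mAb-DXd/IMQ over saline (horizontal axis), with the edgeR estimate and its SE (black), 12 other processing settings (grey bars) and 8 fits with 1 tumor left out (crosses); dotted lines mark the fold change limit of 0.58. Pdgfrb, Dcn, Lum and S100a4 cross 0, and the other 6 genes keep their sign throughout.

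Across the 8 tumors most of the markers rose and fell together. The correlations that follow are descriptions over 8 tumors in 2 groups, with log2 CPM (prior count 2) and no test. Pearson's r was above 0 for 30 of the 45 pairs, and all 15 pairs below 0 held Pdgfra or S100a4. The median r over all 45 pairs was 0.33, and 0.39 after the group means were subtracted. Among the 8 genes left after taking out these 2, a choice that leaves no pair below 0, the median r of 28 pairs was 0.65, and 0.69 after the group means were subtracted. Without the 2 tumors farthest from the median, 1 of the 28 pairs, Fap and Dcn, was below 0 (r = -0.13). Postn and Pdpn had the highest r of 0.89 (Spearman's rho 0.93), and r was 0.83 without the 2 tumors farthest from the median of Postn. Acta2 and Fap had an r of 0.86 (rho 0.74), 0.97 after the group means were subtracted and 0.67 without the 2 tumors farthest from the median of Fap. The pair with the lowest r was Pdgfrb and S100a4, at -0.88 (rho -0.90), and -0.73 without the 2 tumors farthest from the median of Pdgfrb. Pdgfra ran opposite to Fap (r = -0.86, rho = -0.81) and to Thy1 (r = -0.85, rho = -0.76), and with group means subtracted r was -0.56 and -0.86. All values share the scaling of the same 8 libraries.

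Taken tumor by tumor, mAb-DXd/IMQ tumor 3 was the highest of 8 for 4 of the 10 genes and tumor 1 of that group for 3. Saline tumors 1 and 2 were each the lowest of 8 for 4 genes. The mean z-scaled level of the 10 genes was -0.64, -0.60, 0.24 and 0.30 in saline tumors and 0.56, 0.06, 0.58 and -0.51 in treated tumors. The tumors with a low score were thus saline tumors 1 and 2 and mAb-DXd/IMQ tumor 4.

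**Figure D3:**
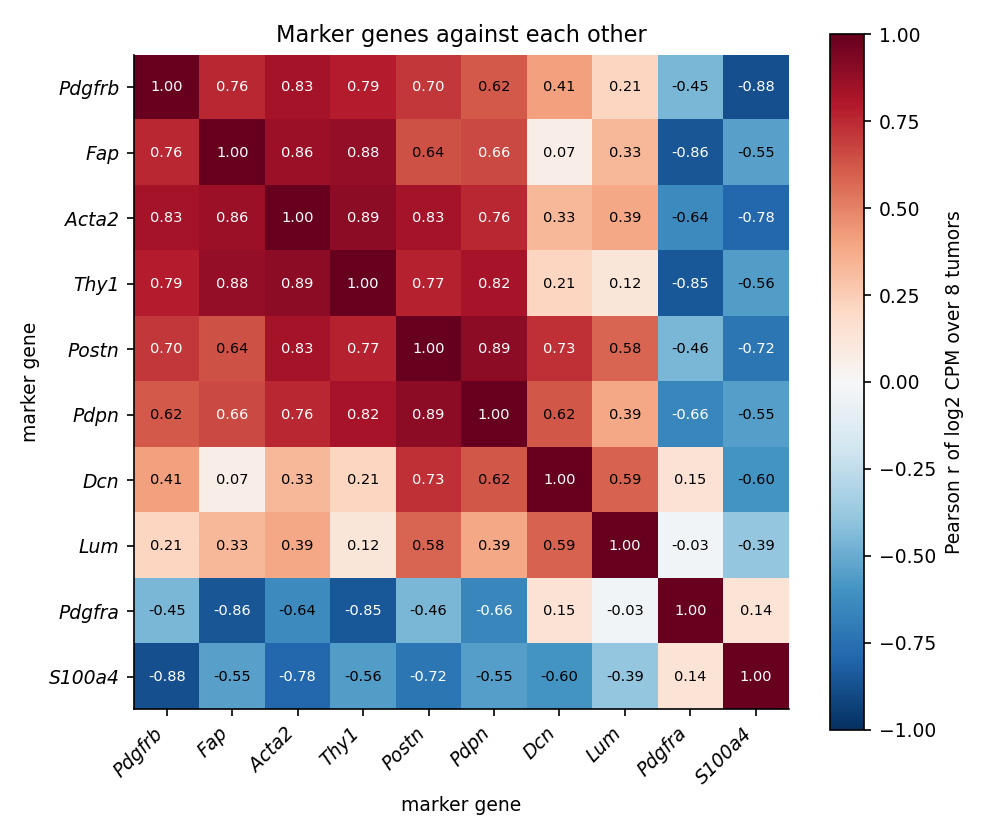
Pearson r of log2 CPM over 8 tumors for each pair of marker genes (both axes), from -1 in blue to 1 in red, with the value printed in each cell. Pairs with Pdgfra or S100a4 hold all 15 values below 0, and the pair of Postn and Pdpn reaches 0.89.

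The genes most like the mean z-scaled level of the markers were sought among 10750 tested genes with a mean of at least 8 CPM. The 5 with the highest r over 8 tumors were Fstl1, a secreted glycoprotein of mesenchymal cells, Bpgm, an enzyme of red cell metabolism, Ptk7, a receptor of the Wnt pathway, Cthrc1, secreted by activated fibroblasts, and Bgn, the proteoglycan biglycan. Their r ran from 0.955 to 0.963 (rho from 0.929 to 0.976), and since these are the highest of 10750 values over 8 tumors, their height follows in part from the search and is no measure of a shared source. None of these 5 was called by edgeR, and their log2 fold changes ran from 0.18 for Ptk7 to 0.40 for Cthrc1.

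Further genes were read from 18 lists, of which 5 are fibroblast lists, 2 hold matrix genes, 2 hold pathways and 9 hold other cell types. Of 176 tested genes in these lists, 5 were called by edgeR (2.84%, beside 1.06% of all tested genes), 1 higher and 4 lower in treated tumors. The lists were chosen with earlier results of these data known, so these shares do not test whether the lists hold more calls. None of the 17 tested pan-fibroblast identity genes was called, with 13 estimates above 0 and 4 below, a median log2 fold change of 0.15, and a range from -0.21 (Mmp2) to 0.78 (Islr). Sparc was the most abundant of them at 308.5 CPM per kb. Their summed level was 1871, 2001, 2648 and 2577 CPM in saline tumors and 3389, 2480, 3382 and 2086 CPM in treated tumors. Treated tumors 1 and 3 had the highest sums, as for the 10 markers. Tcf21 of this list was at 0 in every tumor.

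The myofibroblast list had 0 of 14 genes called, with 13 estimates above 0 and 1 below and a median of 0.32. It ran from -0.64 (Itga11, an integrin that binds collagen, -0.23 without saline tumor 3) to 0.91 (Ccn2, connective tissue growth factor), and Thbs1 was the most abundant at 71.4 CPM per kb. Thbs1, which encodes thrombospondin, measured 339, 367, 366 and 414 CPM in saline tumors and 438, 435, 652 and 459 CPM in treated tumors. All 4 treated tumors were above all 4 saline tumors, with a log2 fold change of 0.42 (SE 0.15, edgeR adjusted p = 0.174) that was 0.26 without mAb-DXd/IMQ tumor 3. Ccn2 was led by mAb-DXd/IMQ tumor 3 at 262 CPM, the other 7 tumors lay between 48.2 and 118 CPM, and without tumor 3 its estimate was 0.27.

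The inflammatory list had 0 of 14 genes called, 9 above 0 and 5 below, and a median of 0.07. C3, the central complement protein, was both its most abundant gene, at 102.5 CPM per kb, and its lowest estimate. C3 measured 1126, 527, 565 and 771 CPM in saline tumors and 308, 421, 166 and 333 CPM in treated tumors. All treated tumors were below all saline tumors, and the log2 fold change of -1.28 (SE 0.30) had an adjusted p of 0.0591 in edgeR. DESeq2 and the fit on all genes with a count called C3 (adjusted p = 5.76e-04 and 0.0186). The highest estimate was 0.77 for Ccl2, a chemokine for monocytes (edgeR adjusted p = 0.0748), which the same alternatives called (adjusted p = 0.0103 and 0.0485).

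The antigen-presenting list had 2 of 6 genes called, in opposite directions, and a median of -0.49. Slpi, a secreted protease inhibitor, rose by 1.46 on the log2 scale (SE 0.23, edgeR adjusted p = 0.0201), from 50.5, 23.7, 36.2 and 43.3 CPM in saline tumors to 110, 98.7, 77.5 and 136 CPM in treated tumors. Saa3, an acute-phase protein, was at 27.5, 28.1, 37.6 and 29.8 CPM in saline tumors and 13.8, 13.4, 18.1 and 13.2 CPM in treated tumors (log2 fold change -1.07, SE 0.15, edgeR adjusted p = 0.0201). Neither gene overlapped between groups. Both calls were lost without saline tumor 3, saline tumor 4 or mAb-DXd/IMQ tumor 4, with adjusted p from 0.0658 to 0.0846, while the log2 fold change stayed between 1.28 and 1.61 for Slpi and between -1.19 and -0.96 for Saa3 whichever tumor was left out. Both were also lost without saline tumor 1 and mAb-DXd/IMQ tumor 2 together (edgeR adjusted p = 0.052 and 0.061), at estimates of 1.65 and -1.08. Cd74, the invariant chain of class II antigen presentation, was the most abundant at 1587 CPM per kb. The macrophage list, given further on, also had a median below 0 (-0.36), and the part of macrophages in these values was not tested.

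Of 7 tested adventitial genes, 1 was called, 3 estimates were above 0 and 4 below, and the median was -0.33. Scara5, a ferritin receptor of resident fibroblasts, fell by 2.11 on the log2 scale (SE 0.37, edgeR adjusted p = 0.0277), the lowest estimate of this list. It measured 81.5, 54.6, 61.6 and 153 CPM in saline tumors and 15.6, 33.1, 12.3 and 20.2 CPM in treated tumors, with no overlap. The call was lost without saline tumor 3 or 4 or without mAb-DXd/IMQ tumor 1, 3 or 4 (adjusted p from 0.0569 to 0.0935), while the estimate stayed between -2.46 and -1.69. A block on replicate number also ended it (edgeR adjusted p = 0.0786), at an estimate of -2.10. So did leaving out saline tumor 1 and mAb-DXd/IMQ tumor 2 together (edgeR adjusted p = 0.0512), at -2.49. The highest estimate was 0.69 for Sema3c, which was -0.07 without mAb-DXd/IMQ tumor 2, and Ly6a was the most abundant at 445 CPM per kb. Clec3b of this list was too low to be tested.

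The 11 collagens had 0 genes called, 6 above 0 and 5 below, and a median of 0.09, from -0.37 (Col12a1, -0.69 to -0.19 with 1 tumor left out) to 0.34 (Col5a2, 0.02 without mAb-DXd/IMQ tumor 3). Col1a1, the most abundant at 386 CPM per kb, was at 1471, 1868, 3512 and 3488 CPM in saline tumors and 2471, 2061, 3971 and 1431 CPM in treated tumors. High and low tumors occurred in both groups, as for Postn. Of 7 tested small leucine-rich proteoglycans, the family of Dcn and Lum, 0 were called, 5 were above 0 and 2 below, and the median was 0.33. They ran from -0.01 (Podn) to 0.87 (Fmod, 0.49 to 1.39 with 1 tumor left out), and Bgn was the most abundant at 50.9 CPM per kb.

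The TGF-beta list, a pathway that drives the myofibroblast state, had 1 of 17 genes called, 4 estimates above 0 and 13 below, and a median of -0.20. Smad3, which carries the signal to the nucleus, was at 213, 267, 224 and 246 CPM in saline tumors and 139, 158, 119 and 143 CPM in treated tumors. The groups did not overlap (log2 fold change -0.77, SE 0.12, edgeR adjusted p = 0.0201), and the call was lost without saline tumor 3, saline tumor 4 or mAb-DXd/IMQ tumor 4 (adjusted p from 0.0682 to 0.0957), with an estimate between -0.83 and -0.70 whichever tumor was left out. The lowest estimate was -1.12 for the coreceptor Tgfbr3, also without overlap (edgeR adjusted p = 0.0668). DESeq2 and the fit on all genes with a count called Tgfbr3 (adjusted p = 0.00259 and 0.0237). The highest was 1.01 for the ligand Tgfb2, at 22.3 CPM in mAb-DXd/IMQ tumor 3 and 0.45 without that tumor, and Ltbp3 was the most abundant gene at 274 CPM per kb.

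**Figure D4:**
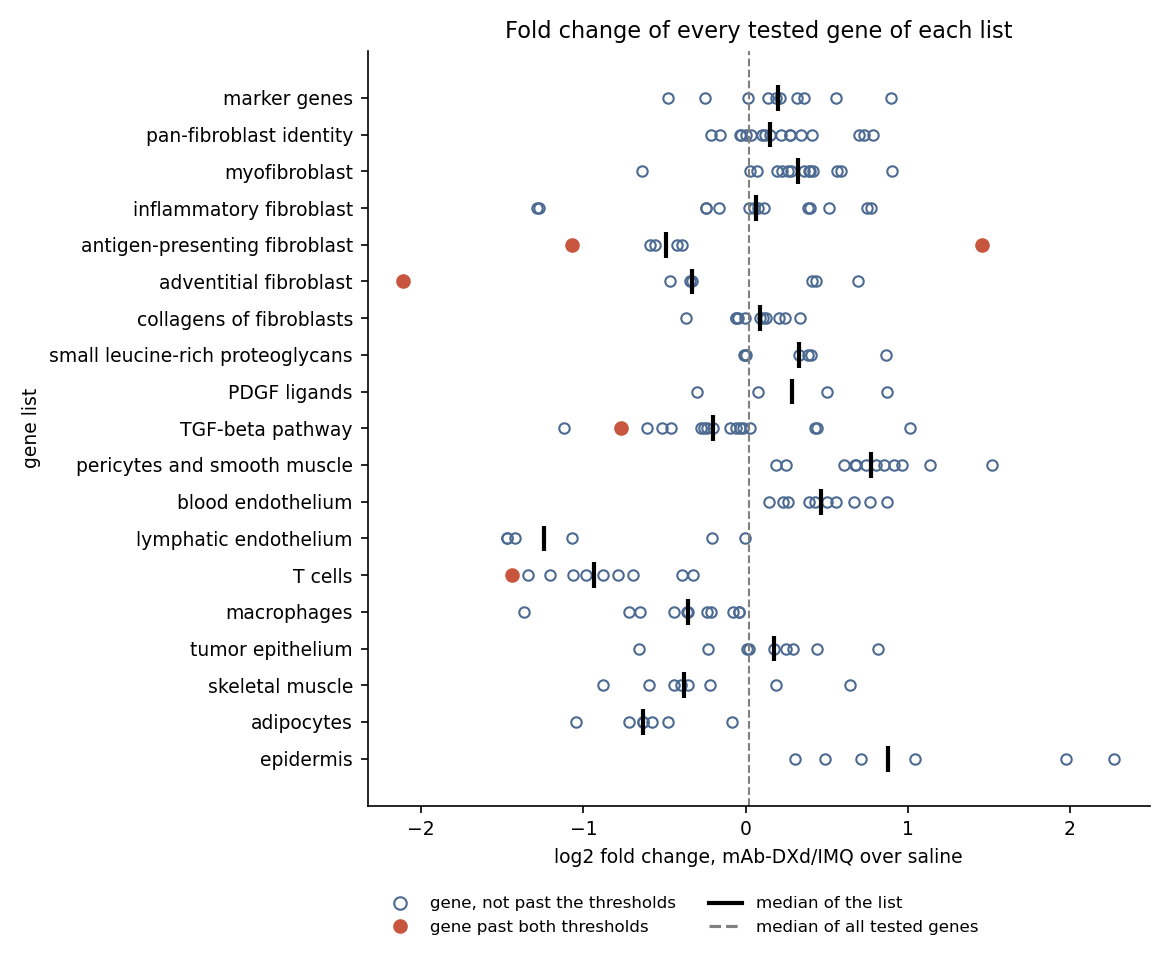
Log2 fold change, mAb-DXd/IMQ over saline (horizontal axis), of every tested gene of each list (rows), with filled points for the 5 genes past both thresholds, black bars for list medians and a dashed line at the median of all tested genes. The marker genes have a median of 0.20 and no filled point.

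Genes of other cell types that share these markers were measured in the same tumors, and their part in the values above was not tested. The pericyte and smooth muscle list had 0 of 12 genes called and 12 of 12 estimates above 0, with a median of 0.77, from 0.19 (Higd1b) to 1.52 (Actg2, 0.64 without mAb-DXd/IMQ tumor 3, where it was at 28.5 CPM). Its summed level was 181, 176, 217 and 177 CPM in saline tumors and 355, 222, 313 and 258 CPM in treated tumors. Des, an intermediate filament gene that skeletal muscle expresses as well, made up 59.0% of the sum in saline tumor 1 and 4.44% in saline tumor 2 (log2 fold change 0.25, edgeR adjusted p = 0.864). Without Des the sums were 74.4, 168, 134 and 131 CPM in saline tumors and 243, 194, 244 and 175 CPM in treated tumors. With or without it, treated tumors 1 and 3, where Acta2 was highest, had the highest sums, and no treated tumor was below any saline tumor. Mcam was its most abundant gene at 22.6 CPM per kb, and no gene of this list was at 0. Without mAb-DXd/IMQ tumor 1 the estimates of Higd1b and Des were -0.15 and -0.03.

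The T cell list summed to 61.6, 85.0, 80.01 and 75.2 CPM in saline tumors and 54.8, 48.4, 33.6 and 50.6 CPM in treated tumors. Unlike Thy1, the sum was lower in all 4 treated tumors than in any saline tumor. All 10 estimates were below 0 (median -0.93), from -1.44 (Cd2) to -0.33 (Il7r), Lck was the most abundant at 4.50 CPM per kb, and 1 gene was called. Cd2 was at 4.46, 3.97, 4.46 and 6.42 CPM in saline tumors and 1.26, 2.61, 1.25 and 2.00 CPM in treated tumors (edgeR adjusted p = 0.0458), and leaving out any 1 tumor ended its call (adjusted p from 0.0518 to 0.155), with an estimate between -1.69 and -1.27. Library totals alone and a block on replicate number also ended it (edgeR adjusted p = 0.0523 and 0.106), at estimates of -1.41 and -1.49.

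Blood endothelium had 0 of 10 genes called by edgeR and 10 above 0 (median 0.46, from 0.14 for Vwf to 0.87 for Emcn), with Cdh5 the most abundant at 11.4 CPM per kb. Its sum was 110, 275, 196 and 208 CPM in saline tumors and 283, 251, 268 and 237 CPM in treated tumors, lowest in saline tumor 1. Emcn did not overlap between groups (edgeR adjusted p = 0.144) and was called by DESeq2 (adjusted p = 0.0414). The estimate of Cdh5 was -0.002 without saline tumor 1, and that of Vwf was -0.053 without mAb-DXd/IMQ tumor 4. Lymphatic endothelium, which shares Pdpn, had 0 of 6 called and 6 below 0 (median -1.24, from -1.47 for Reln to -0.0005 for Flt4), with sums of 13.04, 21.96, 30.0 and 17.1 CPM and 12.5, 16.2, 18.4 and 12.6 CPM. Ccl21a was its most abundant at 2.07 CPM per kb and had 0 counts in saline tumor 4 and mAb-DXd/IMQ tumor 4. In mAb-DXd/IMQ tumor 1, Reln and Ccl21a were each at 0.041 CPM, below the floor of 0.0619 CPM in that tumor. The estimates of Flt4 and Ccl21a had no stable sign, and were 0.0638 and 0.53 with limma-voom.

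Macrophage genes, of a cell type that carries S100a4, had 0 of 11 called by edgeR and 11 below 0 (median -0.36, from -1.37 for Mrc1 to -0.04 for Cd68). They summed to 1262, 6426, 2897 and 3558 CPM in saline tumors and 3656, 2663, 3357 and 2524 CPM in treated tumors, and Lyz2 was the most abundant at 1212 CPM per kb. The estimates of Lyz2 and Cd68 had no stable sign, and were 0.61 and 0.19 without saline tumor 2. Mrc1, which did not overlap between groups, had an adjusted p of 0.0574 in edgeR and was called by DESeq2 (5.07e-04), by the fit on all genes with a count (0.0153) and without saline tumor 1 (0.0294). Saline tumor 1 was thus lowest and saline tumor 2 highest for this list, while both had a low mean z-scaled level of the 10 markers. Tumor epithelium had 0 of 9 called, 7 above 0 and 2 below (median 0.17, from -0.66 for Esrp1 to 0.82 for Cldn7), with Krt18 the most abundant at 472 CPM per kb and a sum of 2292 ± 318 CPM in saline and 2511 ± 588 CPM in treated tumors (SD, n = 4).

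Genes of tissues around a tumor varied widely between the 8 tumors. Epidermis genes summed to 214, 39.15, 154.5 and 109 CPM in saline tumors and 222, 536, 229 and 110 CPM in treated tumors, with Krt14 the most abundant at 89.0 CPM per kb, 0 of 6 tested genes called and 6 above 0 (median 0.88, from 0.30 for Trp63 to 2.27 for Loricrin, which was -1.71 without mAb-DXd/IMQ tumor 2). Krt14 carried these sums, and without it they were 53.4, 12.9, 23.3 and 18.4 CPM in saline tumors and 13.7, 208, 12.9 and 19.1 CPM in treated tumors. Whether Krt14 came from epidermis in each tumor was not tested. Without mAb-DXd/IMQ tumor 2 the estimate of Trp63 was -0.10. Skeletal muscle genes summed to 478, 45.2, 380 and 221 CPM and to 361, 83.1, 182 and 262 CPM, with Acta1 the most abundant at 62.6 CPM per kb, 0 of 8 called and 2 above 0 (median -0.38, from -0.88 for Ckm to 0.65 for Mb), and Tnnc2 was at 0 in every tumor. Adipocyte genes had 0 of 7 called and 7 below 0 (median -0.63, from -1.04 for Retn to -0.08 for Fabp4), with Fabp4 the most abundant at 4.80 CPM per kb and a sum of 33.9 ± 10.4 CPM in saline and 28.9 ± 9.11 CPM in treated tumors. Without saline tumor 4 the estimate of Fabp4 was 0.15. Without the tumor of each group that was richest in epidermis genes, saline tumor 1 and mAb-DXd/IMQ tumor 2, a choice made after seeing the data, 21 genes were called and 0 of the 10 fibroblast markers.

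**Figure D5:**
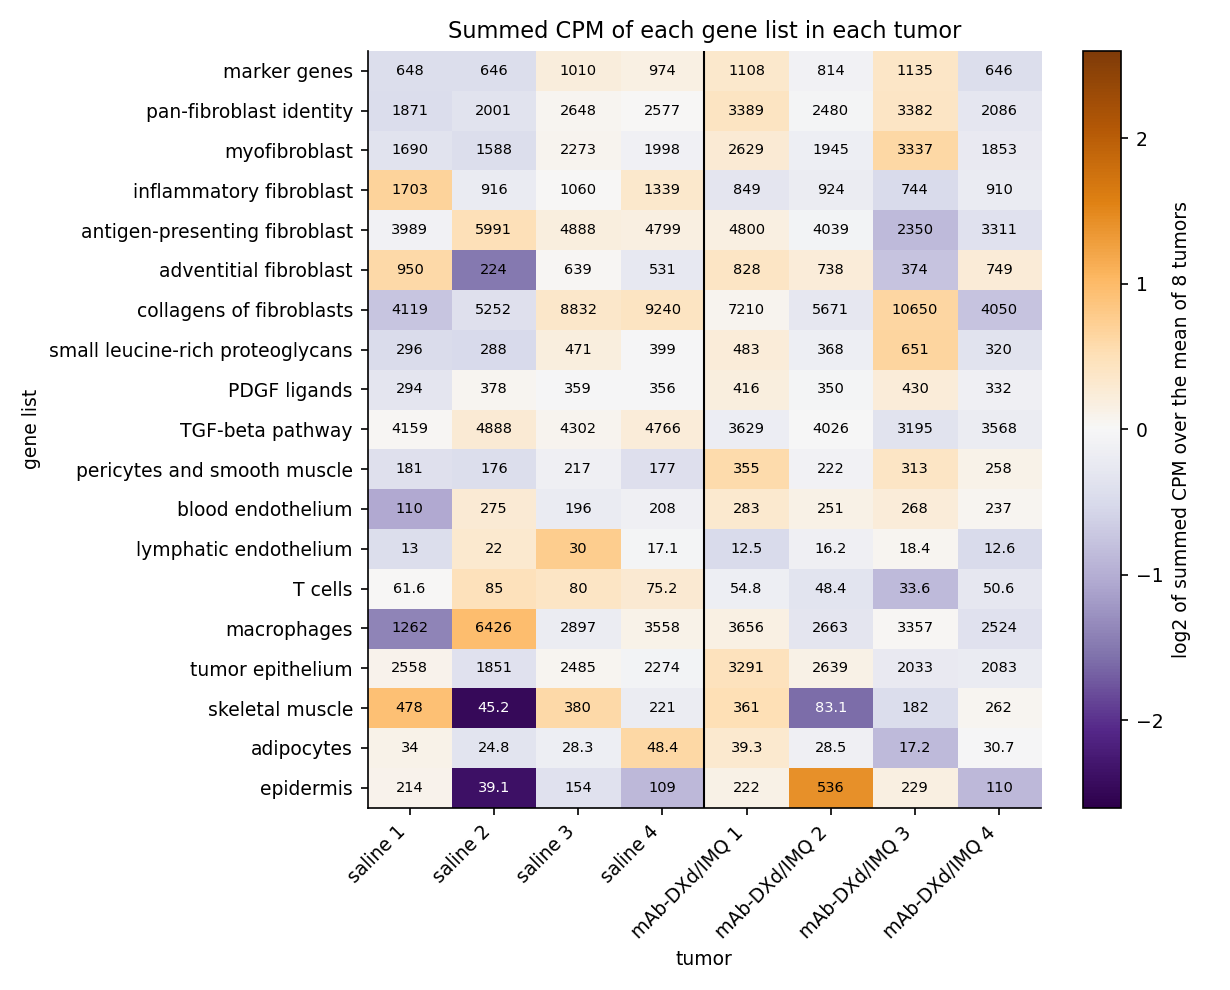
Summed CPM of each gene list (rows) in each tumor (columns), with the sum printed in each cell and the color giving its log2 ratio to the mean of 8 tumors. The marker genes and the pan-fibroblast, myofibroblast and proteoglycan lists are highest in mAb-DXd/IMQ tumors 1 and 3, and the epidermis list is highest in mAb-DXd/IMQ tumor 2 at 536 CPM.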

How the data were processed

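Poly-A RNA of 8 whole tumors, 4 per group, was sequenced. The authors deposited raw counts per gene, and the submitters' notes name HISAT2, HISAT, TopHat2 and the build mm39. Gene starts and ends in the table equalled those of GENCODE M21, which is on GRCm38, for 98.3% of the 54409 genes with an ID there, so coordinates are given as GRCm38. The counting tool and the strand setting are not given in the sources used here. CPM per kb used the gene length column, which equalled the summed exon length in GENCODE M21 for all markers but Acta2.

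Groups came from the sample labels. Counts were filtered with filterByExpr (minimum count 10, minimum total 15), scaled by TMM and tested with edgeR 4.0.16 in R 4.3.3 (glmQLFit and glmQLFTest, no covariate), with Benjamini-Hochberg adjustment over all 18511 tested genes. The common biological coefficient of variation was 0.273. The thresholds were 0.05 for the adjusted p and 0.58 for the size of the log2 fold change. The code was run first on simulated counts with known differences. Alternatives were RLE, upper quartile and total scaling, 2 other filters, DESeq2 1.42.0, limma-voom (limma 3.58.1), no fold limit, a replicate block, a spline on gene length (5 df), and each tumor left out. Python 3.11.15, SciPy 1.17.1 and matplotlib 3.10.9 were used for the remaining steps.

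Named genes were the 10 markers, every listed gene that was called, the most abundant gene per kb and the highest and lowest estimate of each list, the 5 genes most like the markers, and Des, which moves the sum of its list. The lists were pan-fibroblast identity, myofibroblast, inflammatory, antigen-presenting and adventitial fibroblast, collagens, small leucine-rich proteoglycans, PDGF ligands, TGF-beta pathway, pericytes and smooth muscle, blood and lymphatic endothelium, T cells, macrophages, tumor epithelium, skeletal muscle, adipocytes and epidermis. The markers and the lists were chosen with earlier results of these data known. Ccn2 and Loricrin were found under older symbols, and of 2 rows named Ccl21a the one with counts was used. No 2 libraries of a group agreed within sampling noise (chi-square per degree of freedom at least 34.5).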

Additional observations from a re-analysis of the deposited data

Results flagged for a closer look

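Of 58 groups of 4 values looked at (the 10 markers, the sums of the 18 lists and the total counts, in each group), 2 held a tumor set far apart from the other 3, by Dixon's test at its usual limit for 4 values. Chance alone sets apart about 1 group in 20. Dcn was at 30.3 CPM in mAb-DXd/IMQ tumor 4, and the other 3 treated tumors lay between 43.0 and 44.8 CPM. The summed level of the pericyte and smooth muscle list was 216.9 CPM in saline tumor 3, and the other 3 saline tumors lay between 176 and 181 CPM. Des, which skeletal muscle also expresses, was at 107, 7.81, 83.0 and 46.6 CPM in saline tumors 1 to 4, and without it the sums were 74.4, 168, 134 and 131 CPM, with tumor 3 inside the range of the others.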

How the results depend on the processing

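The count of genes past both thresholds, 197, was 203 with RLE factors, 218 with upper quartile factors, 194 with library totals, 233 with a filter of 1 CPM in 4 tumors, 174 with limma-voom and 246 with no fold limit. It was 358 for all genes with a count, 787 with DESeq2, 116 with the gene length correction, 14 with the replicate block, 14 with the gene length correction and the replicate block, 21 without the 2 epidermis-rich tumors (chosen after seeing the data) and 10 to 203 with 1 tumor left out. The cause was not tested. The number of the 10 markers called was 1 with DESeq2 (Fap) and 0 in every other setting, each left-out tumor included. The labels do not say whether same-numbered tumors share anything beside the number. Their deviations from the group means correlated at -0.17, -0.05, 0.08 and -0.07 over the tested genes, and 1 of 4 saline tumors correlated best with its own number. Correlations over all tested genes cannot exclude a shared factor that acts on some genes. The replicate block ended the calls of Scara5, Smad3 and Cd2, with log2 fold changes of -2.10, -0.77 and -1.49 (-2.11, -0.77 and -1.44 in the main fit), and kept those of Slpi and Saa3. Cd2 was also lost with library totals alone (edgeR adjusted p = 0.0523). All 5 were lost without the 2 epidermis-rich tumors, with adjusted p from 0.0512 to 0.0692 in edgeR on 3 tumors per group, while their log2 fold changes were as large or larger: Slpi 1.65 (1.46 in the main fit), Saa3 -1.08 (-1.07), Scara5 -2.49 (-2.11), Smad3 -0.88 (-0.77) and Cd2 -1.73 (-1.44). Of 67 named genes, 62 were fitted in all 20 settings, and 44 of these kept the sign of their log2 fold change throughout. The other 5 (Ccl21a, Loricrin, Reln, Retn and Sema3c) failed the filter in at least 1 setting, and Reln and Retn kept their sign in the settings that held them. In total 21 genes changed sign somewhere, none of them called. Without the 2 epidermis-rich tumors the changed values were Lum -0.18, Cdh5 -0.0079, Acta1 0.33, Trp63 -0.25. With the gene length correction the changed values were S100a4 -0.13, Flt4 0.0524. With the gene length correction and the replicate block the changed values were S100a4 -0.13, Flt4 0.12, Lyz2 0.20. With upper quartile factors the changed values were Podn 0.0374, Flt4 0.0504, Lyz2 0.008, Cd68 0.0122. With library totals alone the changed values were Podn 0.0255, Flt4 0.0405. With the replicate block the changed values were Podn 0.0231, Flt4 0.0619, Lyz2 0.34, Cd68 0.0073. With limma-voom the changed values were Ccl21a 0.53, Flt4 0.0638, Lyz2 0.38, Cd68 0.0092. With a filter of 1 CPM in 4 tumors the changed values were Flt4 0.0107. Over the left-out tumors the log2 fold change ran as follows for genes that changed sign: Pdgfrb -0.0261 to 0.47, Dcn -0.42 to 0.0689, Lum -0.12 to 0.44, S100a4 -0.0973 to 0.18, Mmp2 -0.44 to 0.0097, Sema3c -0.0661 to 1.03, Col1a1 -0.38 to 0.14, Podn -0.16 to 0.19, Higd1b -0.15 to 0.41, Cdh5 -0.002 to 0.57, Vwf -0.053 to 0.31, Ccl21a -0.81 to 1.52, Flt4 -0.22 to 0.19, Lyz2 -0.39 to 0.61, Cd68 -0.15 to 0.19, Krt18 -0.0097 to 0.26, Acta1 -0.78 to 0.0372, Fabp4 -0.25 to 0.15, Loricrin -1.71 to 7.59, Trp63 -0.10 to 0.53, Des -0.12 to 0.66. It kept its sign but moved by more than 1.5 times for Acta2 0.28 to 0.77, Thy1 0.22 to 0.48, Postn 0.0313 to 0.37, Pdpn 0.0967 to 0.31, Sparc 0.23 to 0.58, Thbs1 0.26 to 0.48, Ccn2 0.27 to 1.17, Itga11 -0.90 to -0.23, Cd74 -0.60 to -0.28, Ly6a 0.0933 to 0.88, Col5a2 0.019 to 0.53, Col12a1 -0.69 to -0.19, Bgn 0.10 to 0.51, Fmod 0.49 to 1.39, Pdgfc -0.45 to -0.18, Pdgfb 0.55 to 1.05, Ltbp3 -0.64 to -0.28, Tgfb2 0.45 to 1.36, Actg2 0.64 to 1.82, Il7r -0.48 to -0.20, Mrc1 -1.58 to -0.90, Cldn7 0.43 to 1.28, Mb 0.29 to 0.87, Ckm -1.44 to -0.47, Retn -1.43 to -0.49, Fstl1 0.17 to 0.56, Bpgm 0.12 to 0.35, Ptk7 0.11 to 0.26, Cthrc1 0.15 to 0.72. A prior count of 0.5 in place of 2 moved no log2 CPM of the 10 markers by more than the SD of its group, over 80 values. Depth limits Fap and S100a4 most, whose lowest counts were 234 and 188.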
